A study of Rattus norvegicus with 6 samples.

Results

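Astrocytes clear released glutamate, GABA, potassium and water from the spaces around neurons, and 8 genes of these tasks were examined here at the site of a chronic spinal cord contusion in the rat. The genes were Slc1a1, Slc1a2, Slc1a3, Glul, Glud1, Aqp4, Slc6a11 and Slc4a4. Their members are the probe sets whose only gene name in the array's annotation is one of these symbols, which gave 21 of 8740 probe sets, and all 8 genes were found among the 4736 that a probe set names singly. Total RNA was measured on 6 one-colour arrays, 3 from the epicenter of a contusion at day 35 and 3 from the same position, about thoracic segment 8, in uninjured animals. The labels give no strain, sex or age, no severity of the blow and no sham operation for the uninjured animals, so surgery and elapsed time cannot be told apart from the contusion. Whether every array stands for a separate animal is not stated outright either, so the p-values describe array-to-array spread, part of which may be technical.

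Glutamate released at synapses is carried into astrocytes by the sodium-driven transporters GLAST (Slc1a3) and GLT-1 (Slc1a2). Inside, glutamine synthetase (Glul) joins it to ammonia, and the glutamine is handed back to neurons, while glutamate dehydrogenase (Glud1) feeds part of it into mitochondrial metabolism. Aqp4 is the water channel of the astrocyte endfeet that wrap blood vessels, Slc6a11 encodes the GABA transporter GAT-3, and Slc4a4 encodes the sodium bicarbonate cotransporter NBCe1. Slc1a1 encodes EAAC1, which is best known as a transporter of neurons, so the group is not one of astrocyte genes throughout.

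None of the 8 genes passed the test for a change at the epicenter. In limma, 0 of 18 tested probe sets were higher and 0 lower at an adjusted p of 0.05, where 17.4% of all 6705 tested probe sets passed in either direction, 7.79% higher and 9.59% lower. Counted by an unadjusted p of 0.05, there were 3 of 18, against 30.3% of all tested probe sets. The groups did not overlap for 2 of the 18, with the contused arrays lower in both, against 34.8% of all tested probe sets. The log2 changes of the 18 ran from -0.38 to 0.54 with a median of 0.01, while the median over all tested probe sets was -0.0055. Without regard to sign, the median log2 change was 0.09 for the 18 and 0.21 for all tested probe sets. The remaining 3 probe sets were too dim to be tested, since fewer than 3 of the 6 arrays lay above a floor set at the pooled 25th percentile, a signal of 61.6. A missed threshold does not show equal levels. The 95% intervals give the sizes that the data allow with this floor: 17 of the 18 lay within 2-fold in both directions. The exception was the probe set of Slc4a4. Where arrays lie under the floor, the change and its interval are compressed. For Slc1a1 AF038571_s_at, a floor at the pooled 10th percentile gave a log2 change of 0.3 (SE 0.34), against 0.07 (SE 0.22) here.

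**Figure D1:**
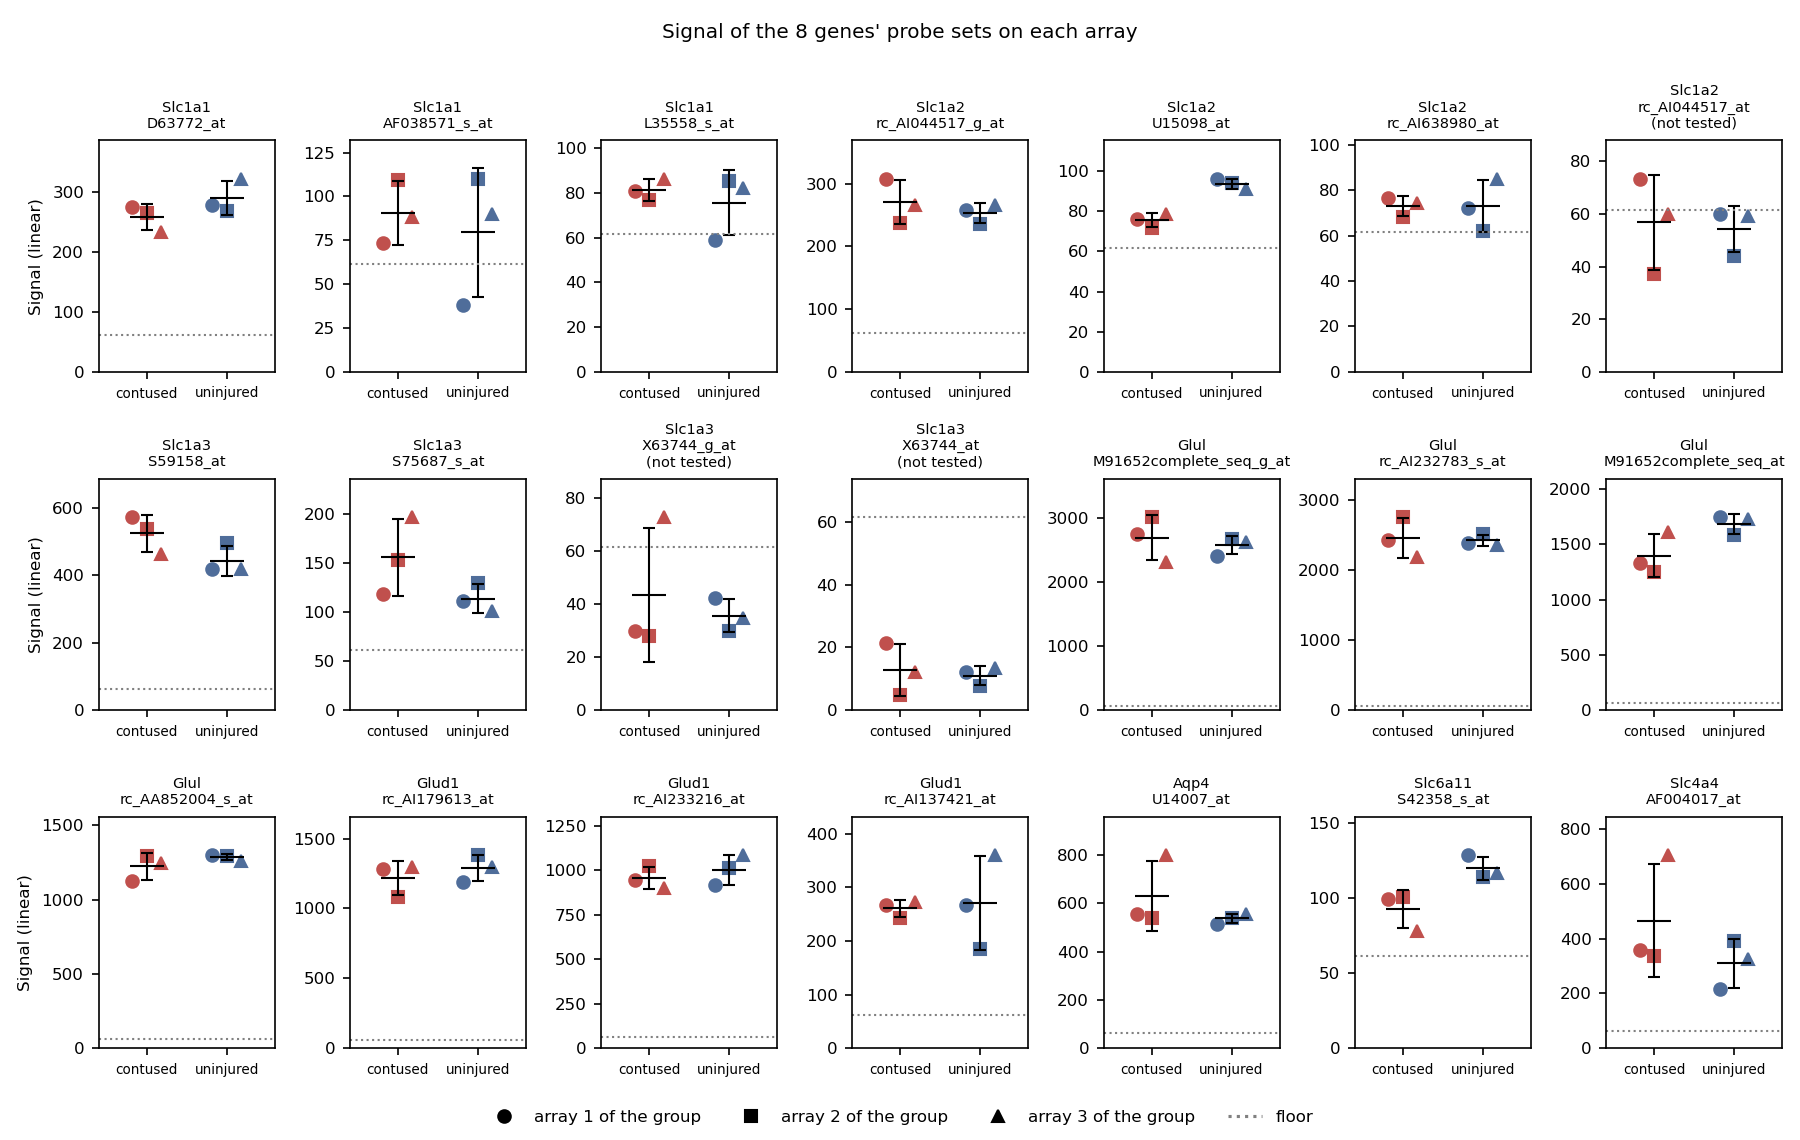
Deposited signal (linear scale, vertical axis) of each of the 21 probe sets on the 3 contused arrays (red, left) and the 3 uninjured arrays (blue, right); bars give the mean ± SD and the dotted line the floor of 61.6. The groups lie apart for Slc1a2 U15098_at and Slc6a11 S42358_s_at, and contused array 3 is high for Slc4a4 and Aqp4.

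**Figure D2:**
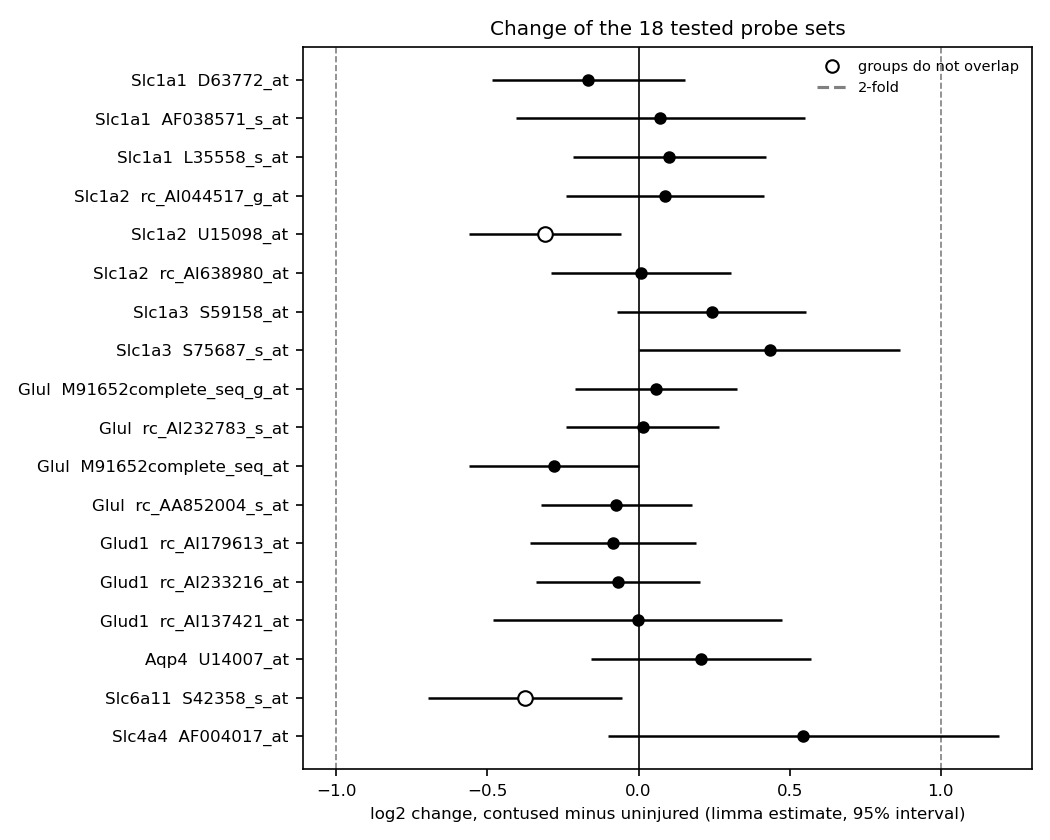
Log2 change, contused minus uninjured, with its 95% interval from limma for the 18 tested probe sets; open circles mark those whose groups do not overlap and dashed lines a 2-fold difference. The estimates run from -0.38 to 0.54, and the interval of Slc4a4 alone reaches past 2-fold.

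Slc1a3 (GLAST) was represented by 4 probe sets. S59158_at gave signals of 573, 538 and 465 on the contused arrays, against 418, 495 and 418 on the uninjured arrays. The groups overlapped only in that contused array 3 lay below uninjured array 2. The log2 change of S59158_at was 0.24 (SE 0.14, 95% interval -0.07 to 0.55, limma adjusted p = 0.288). S75687_s_at, whose name ending marks probes that can match more than one similar sequence, gave 119, 153 and 197 on the contused arrays and 111, 129 and 101 on the uninjured arrays. Its log2 change was 0.43 (SE 0.19, interval 0.0029 to 0.87, adjusted p = 0.162), the largest estimate among the glutamate transporters. The estimate of S75687_s_at was 0.25 without contused array 3 (adjusted p = 0.392) and was 0.62 without contused array 1 (0.0617). X63744_g_at had 29.8, 28 and 72.9 on the contused arrays and 42.2, 29.9 and 34.7 on the uninjured arrays, above the floor on contused array 3 only. X63744_at stayed at or under 21.5 on every array. Both tested probe sets of Slc1a3 thus had estimates above 0, and neither passed.

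Slc1a2 (GLT-1), known as the main glutamate transporter of astrocytes in the adult nervous system, also had 4 probe sets, and they did not give one answer. Its brightest, rc_AI044517_g_at, read 307, 238 and 265 on the contused arrays, against 258, 235 and 266 on the uninjured arrays. The log2 change there was 0.09 (SE 0.15, interval -0.24 to 0.42, adjusted p = 0.745), with the groups overlapping. U15098_at read 76.3, 71.9 and 78.7 on the contused arrays, against 96.1, 93.9 and 91.2 on the uninjured arrays, so every contused array lay below every uninjured one. Its log2 change of -0.31 (SE 0.11, interval -0.56 to -0.06) had the smallest adjusted p of all 18 probe sets, 0.0897. Under quantile normalization that adjusted p was 0.0496, and without the filter on dim probe sets it was 0.021. With contused array 3 left out it was 0.0836, and with any other single array left out it lay between 0.13 and 0.232. All 6 signals of U15098_at lie not far above the floor of 61.6. Another dim probe set, rc_AI638980_at, read 76.5, 68 and 74.4 on the contused arrays, against 72, 62.2 and 84.9 on the uninjured arrays, and its log2 change was 0.0083 (SE 0.13). The last, rc_AI044517_at, lay above the floor on contused array 1 alone and was not tested.

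Slc1a1 (EAAC1) had 3 tested probe sets. D63772_at gave 275, 266 and 233 on the contused arrays, against 279, 268 and 321 on the uninjured arrays. Its log2 change was -0.17 (SE 0.14, interval -0.48 to 0.15, adjusted p = 0.493). AF038571_s_at read 73.3, 110 and 88.1 on the contused arrays and 38.3, 110 and 90.2 on the uninjured arrays. L35558_s_at read 81.1, 76.7 and 86.2 on the contused arrays and 58.9, 85.5 and 82.3 on the uninjured arrays. In both dim probe sets uninjured array 1 was the lowest of all 6 and lay under the floor. Their log2 changes were 0.07 and 0.1 (SE 0.22 and 0.14), and without uninjured array 1 these estimates turned to -0.16 and -0.05.

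Whether the family's members changed unequally was asked with ratios inside each array, taking the brightest tested probe set of each gene, which cancels any scaling of the array as a whole. The log2 ratio of Slc1a1 over Slc1a3 was -1.06, -1.02 and -0.99 on the contused arrays, against -0.58, -0.89 and -0.38 on the uninjured arrays. The groups did not overlap, and the difference in means was -0.41. An exact two-sided permutation test gave p = 0.1, the smallest that 3 against 3 arrays allow, and 0.3 after Benjamini-Hochberg adjustment over the 3 pairs of genes. Slc1a1 over Slc1a2 averaged -0.06 ± 0.19 in contused cord and 0.19 ± 0.08 in uninjured cord (SD, n = 3 each; exact permutation p = 0.2, adjusted 0.3). Slc1a2 over Slc1a3 averaged -0.96 ± 0.19 in contused cord and -0.81 ± 0.23 in uninjured cord (SD, n = 3 each; exact permutation p = 0.5, adjusted 0.5). No pair could reach the threshold in this design.

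Glul (glutamine synthetase) was read by 4 probe sets, all far above the floor. M91652complete_seq_g_at gave 2746, 3006 and 2312 on the contused arrays, against 2408, 2672 and 2623 on the uninjured arrays. rc_AI232783_s_at gave 2424, 2750 and 2185 on the contused arrays, against 2389, 2511 and 2360 on the uninjured arrays. In both, contused arrays 2 and 3 were the highest and the lowest of all 6. The log2 changes were 0.06 (SE 0.12, interval -0.21 to 0.33) and 0.01 (SE 0.11, interval -0.24 to 0.27). Another, rc_AA852004_s_at, averaged 1222 ± 88.9 in contused cord and 1284 ± 19 in uninjured cord (SD, n = 3 each), a log2 change of -0.07 (SE 0.11, limma adjusted p = 0.715).

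The fourth Glul probe set, M91652complete_seq_at, stood apart from the others, although it carries the same accession as M91652complete_seq_g_at. It read 1329, 1248.5 and 1616 on the contused arrays, against 1746, 1585 and 1733 on the uninjured arrays. Only contused array 3 reached into the uninjured range. The log2 change of M91652complete_seq_at was -0.28 (SE 0.13, interval -0.56 to 0.002, limma adjusted p = 0.168). Without contused array 3 it was -0.39 with an adjusted p of 0.0381, which passes the threshold. Contused array 3 was thus the highest of the contused arrays for this probe set and the lowest for its companion of the same accession.

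Glud1 (glutamate dehydrogenase) gave estimates at or slightly below 0 at all 3 of its probe sets. rc_AI179613_at read 1279, 1079 and 1295 on the contused arrays, against 1190, 1379 and 1299 on the uninjured arrays, and its log2 change was -0.08 (SE 0.12). rc_AI233216_at read 943, 1024 and 903 on the contused arrays, against 916, 1012 and 1083 on the uninjured arrays, a log2 change of -0.07 (SE 0.12). The groups overlapped in each. The third, rc_AI137421_at, read 267, 243 and 273 on the contused arrays, against 268, 185 and 359 on the uninjured arrays, a log2 change of -0.0035 (SE 0.22). Uninjured arrays 2 and 3 were its lowest and highest, so its precision was limited by the uninjured group. The intervals of rc_AI179613_at and rc_AI233216_at reach no further than -0.36 and 0.2.

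Slc6a11 (GAT-3), which takes up GABA into astrocytes, had a single, dim probe set. Its name ending marks probes that can match more than 1 similar sequence. Slc1a3 S75687_s_at and the probe sets of Slc1a1 and Glul that end in _s_at share it. S42358_s_at read 99.2, 101 and 78.4 on the contused arrays, against 129, 114 and 117 on the uninjured arrays. Every contused array lay below every uninjured one. The log2 change was -0.38 (SE 0.14, interval -0.7 to -0.06), a level 1.3-fold lower, and the adjusted p of 0.105 in limma missed the threshold. Leaving out contused array 3, the lowest, moved the estimate to -0.26 (adjusted p = 0.247). In the 13 alternatives that tested it the estimate stayed below 0, and the adjusted p went no lower than 0.0854. A floor at the pooled median removed it from the test.

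Aqp4, the endfoot water channel, averaged 630 ± 145 in contused cord and 537 ± 19.9 in uninjured cord (SD, n = 3 each). Its values were 554, 539 and 798 on the contused arrays, against 516, 541 and 555 on the uninjured arrays. Contused arrays 1 and 2 lay within the uninjured range, and array 3 lay well above it. The log2 change was 0.21 (SE 0.16, interval -0.16 to 0.57, limma adjusted p = 0.447), and 0.02 without contused array 3 (adjusted p = 0.913).

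Slc4a4 (NBCe1) had the largest estimate of the 18 and the widest interval. It gave 358, 336 and 703 on the contused arrays, against 215, 392 and 324 on the uninjured arrays. Contused array 3 stood far above its companions, and the groups overlapped. The log2 change was 0.54 (SE 0.29, interval -0.1 to 1.19, limma adjusted p = 0.245). It was 0.21 without contused array 3 (adjusted p = 0.612) and 0.3 without uninjured array 1 (0.569). The interval reached a 2.28-fold rise, so differences up to that size lie within what these arrays allow.

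Aqp4, Slc4a4 and Slc6a11 shared the pattern that contused array 3 lay farthest from the uninjured arrays. Over the 6 arrays the log2 values of Aqp4 and Slc4a4 had a Pearson correlation of 0.9, and those of Slc6a11 correlated with Aqp4 at -0.876 and with Slc4a4 at -0.905. All points share the arrays and their groups, and without contused array 3 the values were 0.797, -0.619 and -0.687 over 5 arrays. Between the other genes the correlations ran both ways, for example 0.66 for Slc1a3 with Glul and -0.686 for Slc1a1 with Aqp4. Contused array 3 was the highest or the lowest of its group in 14 of the 18 probe sets (77.8%), against 69.1% of all tested probe sets. The SD on the log2 scale was larger in the contused than in the uninjured group for 12 of the 18 (66.7%), against 55.7% of all tested probe sets. Contused array 3 did not stand out in overall signal: the median over all probe sets was 122, 127 and 127 on contused arrays 1 to 3.

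The genes with the most similar profile over the 6 arrays were found among 3955 tested genes by Pearson correlation of log2 values. For Aqp4 they were Nop58 and Klf13 (0.985 and 0.978), and for Slc4a4 Rab14 and Nedd4 (0.971 and 0.946). Slc6a11 was nearest to Hmga2 and Zfp622 (0.983 and 0.975), and Slc1a3 to Eef1g and Rpl4 (0.978 for each). Slc1a2 lay nearest to Gabrr3 and Smad3 (0.995 and 0.987), Slc1a1 to Glp1r and Scarb1 (0.981 and 0.973), Glul to Casz1 and Ptprs (0.975 and 0.969), and Glud1 to Mrps31 and Nubpl (0.931 and 0.909). Between 4 and 58 genes per member had a correlation above 0.9, so these neighbours are a few among many.

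Of the other genes that handle glutamate and glutamine, 3 of 12 tested were lower and 0 higher after contusion, where 16.9% of all 3955 tested genes passed in either direction, and the list's median log2 change was -0.23. Got1, the cytosolic aspartate aminotransferase that interconverts glutamate and oxaloacetate with aspartate and oxoglutarate, read 369, 356 and 349 on the contused arrays, against 687, 907 and 885 on the uninjured arrays. Its log2 change was -1.2 (SE 0.14, limma adjusted p = 0.000344), and the groups lay far apart. Gls2, a glutaminase, averaged 80.6 ± 2.08 in contused cord and 136 ± 11.1 in uninjured cord (SD, n = 3 each; log2 change -0.75, limma adjusted p = 0.00281). When the floor was raised to the pooled 50th percentile, close to these signals, Gls2 did not pass (adjusted p = 0.383). Got2, the mitochondrial aminotransferase, was the third (log2 change -0.48, adjusted p = 0.0223) and is named after its value was seen. The Got2 call was lost under quantile normalization (adjusted p = 0.0585) and without contused array 1 or 2 or uninjured array 2 or 3, up to 0.0838. Neuron markers were lower in the same samples, 19 of 22 tested with 0 higher, and their part in these changes was not tested.

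**Figure D3:**
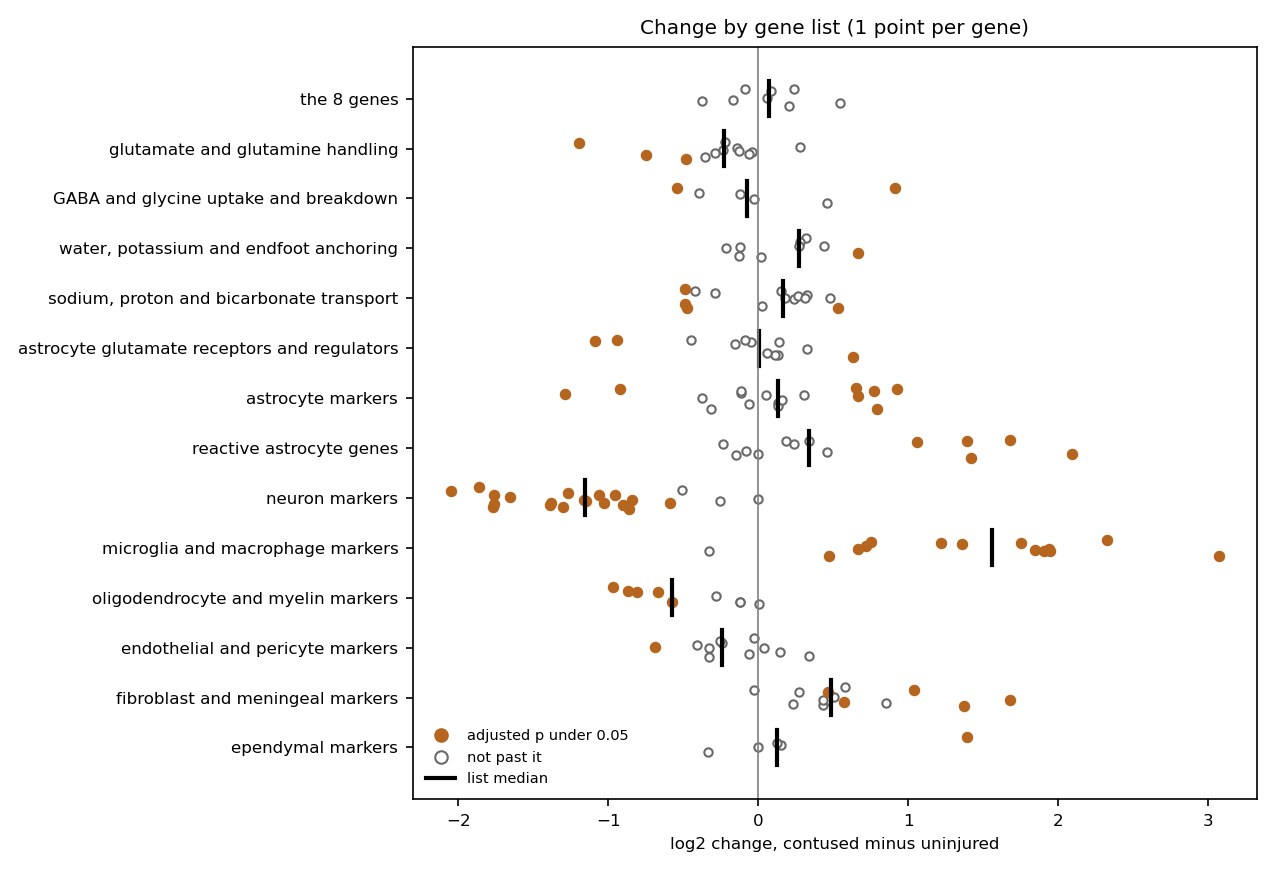
Log2 change, contused minus uninjured, of each tested gene by list, 1 point per gene at its brightest tested probe set; filled points passed an adjusted p of 0.05 and the black bar is the list median. The 8 genes lie between -0.38 and 0.54 with none filled, while 19 of 22 neuron markers are filled on the left and 13 of 14 microglia and macrophage markers on the right.

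GABA and glycine uptake and breakdown, to which Slc6a11 is functionally closest, had 1 gene higher and 1 lower of 6 tested, with a median log2 change of -0.08. Over all 3955 tested genes, 16.9% passed in either direction. Abat, the transaminase that breaks down GABA, was lower (log2 change -0.54, limma adjusted p = 0.0231), and Slc6a6, the taurine transporter, was higher (0.91, adjusted p = 0.0444). Neither call held with every array left out in turn: the adjusted p of Abat went up to 0.0885 without contused array 2, and was also lost without contused array 1 or uninjured array 2 or 3. Slc6a6 was lost when any array other than contused array 1 was left out, up to 0.135 without uninjured array 1, and under quantile normalization (0.0565) or a floor at the pooled 10th percentile (0.0555). Slc6a9, a glycine transporter of glia named after its value was seen, averaged 601 ± 61.9 in contused cord and 786 ± 36.9 in uninjured cord (SD, n = 3 each), with no overlap and an adjusted p of 0.0611 in limma. Slc6a13 and Slc6a5 of this list are also named after their values were seen. Slc6a13, which is also in the list of fibroblast and meningeal markers, went the other way, also without overlap (log2 change 0.46, limma adjusted p = 0.134). Slc6a5 overlapped (-0.03, adjusted p = 0.919). The groups did not overlap for 34.8% of all tested probe sets.

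Of the genes around Aqp4, which handle water and potassium or anchor channels at endfeet, 1 of 9 tested was higher and 0 lower, with a median log2 change of 0.27. The share that passed in either direction was 16.9% over all 3955 tested genes. The higher gene was Gja1, the gap junction protein connexin 43 of astrocytes (log2 change 0.66, limma adjusted p = 0.0338), which is also counted among the higher astrocyte markers below. Its call was lost without any one array other than uninjured array 2, up to 0.144 without uninjured array 3. Aqp1, Kcnj10, Aqp9 and Kcnj16, the water and potassium channels tested in this list, are named after their values were seen. Aqp1, another water channel, averaged 235 ± 9.7 in contused cord and 188 ± 9.73 in uninjured cord (SD, n = 3 each; limma adjusted p = 0.139). Kcnj10, the inward rectifier Kir4.1 of astrocytes, averaged 152 ± 4.42 in contused cord and 176 ± 12.5 in uninjured cord (SD, n = 3 each; limma adjusted p = 0.324). Neither pair of groups overlapped, which was also so for 34.8% of all tested probe sets, and neither gene passed. Aqp9 was likewise higher on every contused array (log2 change 0.28, limma adjusted p = 0.115). For Kcnj16 the groups overlapped (log2 change -0.13, limma adjusted p = 0.65).

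Among genes of sodium, proton and bicarbonate transport, the setting of Slc4a4, 1 of 14 tested was higher and 3 were lower, with a median log2 change of 0.16. Of all 3955 tested genes, 16.9% passed in either direction. Slc16a1, a carrier of lactate, was higher (log2 change 0.53, limma adjusted p = 0.0331). Atp1b1, a beta subunit of the sodium pump (-0.48, adjusted p = 0.0153), and Slc12a2, the cotransporter NKCC1 (-0.47, adjusted p = 0.0317), were lower. So was Slc4a3, an anion exchanger of the same family as Slc4a4, named after its value was seen (-0.48, adjusted p = 0.0352). None of the 4 calls remained without uninjured array 3. Slc16a1 was also lost without contused array 1 or 2 or uninjured array 1, Atp1b1 without contused array 2, and Slc12a2 without contused array 1 or uninjured array 2. Slc4a3 was lost without any one array other than uninjured array 1, and with the replicate number as a block (adjusted p = 0.0541).

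The list of astrocyte glutamate receptors and of factors known to act on these transporters had 1 gene higher and 2 lower of 12 tested, with a median log2 change of 0.0059. Among all 3955 tested genes, 16.9% passed in either direction. Adcyap1, the precursor of the neuropeptide PACAP, averaged 327 ± 27.4 in contused cord and 698 ± 88.6 in uninjured cord (SD, n = 3 each; log2 change -1.09, limma adjusted p = 0.000612). Tgfa, a ligand of the epidermal growth factor receptor, averaged 107 ± 18.9 in contused cord and 205 ± 20.8 in uninjured cord (SD, n = 3 each; log2 change -0.94, limma adjusted p = 0.00337). Both calls held with any one array left out. Nfe2l2, the transcription factor NRF2 of antioxidant genes, was higher (log2 change 0.63, adjusted p = 0.0405), a call lost without contused array 2 or 3 or uninjured array 1 or 3, up to 0.148. The glutamate receptor genes Grm3 and Grm5, named after their values were seen, had log2 changes of -0.45 and -0.09 with adjusted p of 0.253 and 0.809 in limma.

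Marker lists set these values in the tissue. In bulk RNA, fewer cells of a type and less RNA per cell cannot be told apart. Astrocyte markers, 18 of 25 of which were on the array under a single gene name, had a summed signal of 33866 to 37575 in contused cord and 27083 to 30553 in uninjured cord. Without Apoe, Clu and Cst3, which other cells also make and which were set apart after their values were seen, the other 15 summed to 17127 to 17884 in contused cord and 16133 to 17943 in uninjured cord, and the groups overlapped. Each gene left out was higher on every contused array than on every uninjured one. Leaving them out therefore had to bring the sums closer, and the overlap does not show an unchanged astrocyte signal. Of 17 tested, 5 were higher and 2 lower, where 277 of all 3955 tested genes were higher and 392 lower: Apoe and Clu had log2 changes of 0.8 and 0.77, and Ntrk2 and Acsl6 had -1.29 and -0.92. Without contused array 2 or uninjured array 3 the count of higher astrocyte markers was 3, and without the filter on dim probe sets 1 was higher and 0 lower. Dio2 lay at the floor on all 6 arrays, and Gfap was not analysed here. Of 13 genes known from reactive astrocytes 5 were higher and 0 lower, led by Cp (2.09) and Hspb1 (1.68), and 8 did not pass. Without the filter on dim probe sets 3 of these genes were higher. Microglia and macrophage markers summed to 11634 to 12264 in contused cord and 3901 to 4822 in uninjured cord. Neuron markers summed to 11602 to 12610 in contused cord and 22101 to 26866 in uninjured cord. Oligodendrocyte markers were lower in 5 of 9 cases, fibroblast and meningeal markers higher in 5 of 14, ependymal markers higher in 1 of 5 (Vim, also counted among the reactive astrocyte genes), and endothelial markers lower in 1 of 11. Fibroblast and meningeal markers were higher in 1 case without contused array 2 and in 3 without contused array 1 or uninjured array 3, and the endothelial call, of the transferrin receptor gene Tfrc, was lost without any one array other than contused array 3. What part the share of each cell type has in the values of the 8 genes was not tested.

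**Figure D4:**
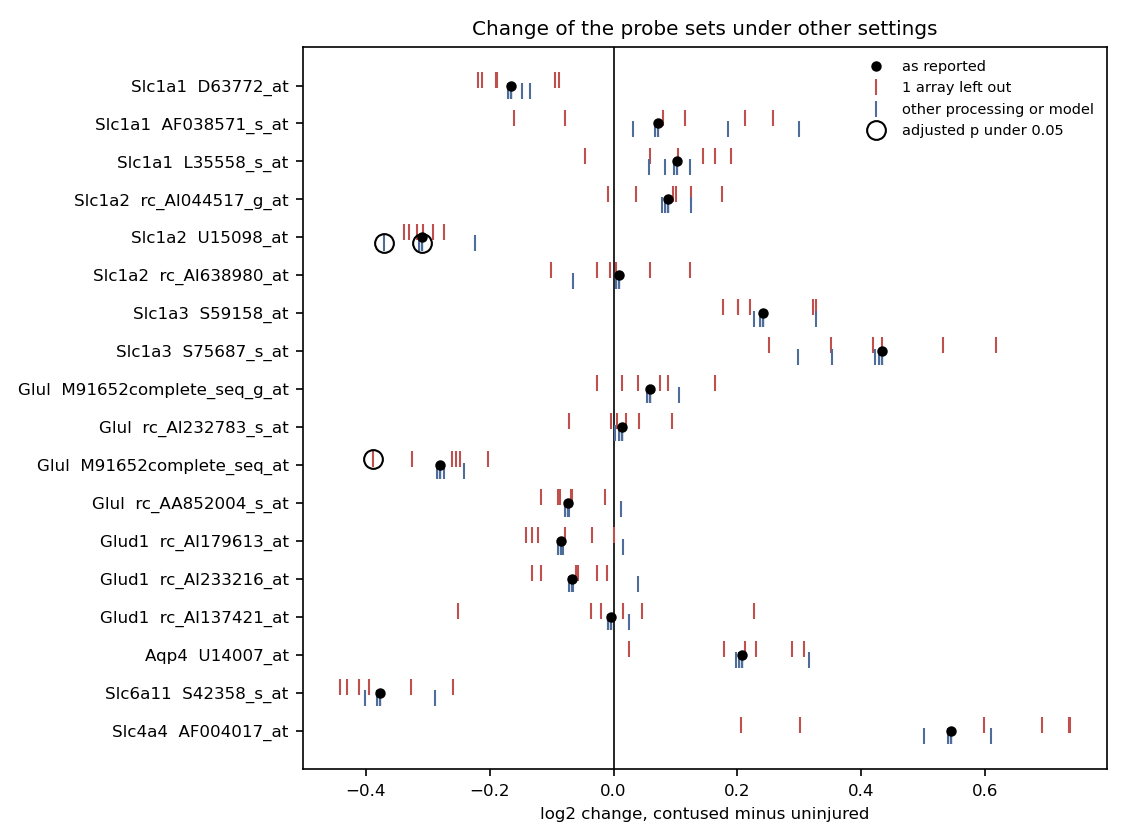
Log2 change, contused minus uninjured, of the 18 tested probe sets as reported (black points), with 1 array left out (red ticks) and under other processing or models (blue ticks); circles mark an adjusted p under 0.05. Only Slc1a2 U15098_at (under 2 settings) and Glul M91652complete_seq_at (under 1) pass in any of them.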

How the data were processed

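The authors deposited 1 intensity per probe set and array on a linear scale. That scale was read from the values, which are skewed and include 21 to 32 values below 0 per array. Summarisation, background correction and scaling are not given in the sources used here. After trimming 2% at each end, array means spread by 8.54%, under a limit of 10%, so the values were used as deposited. Control probe sets (59 of 8799) were left out. Names came from the array's annotation, updated through gene identifiers to rat GRCr8 symbols, and no coordinates were used: 7006 probe sets had 1 gene, 308 several and 1426 none, and 6985 symbols were updated. The table held 0 columns of other samples.

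Values under the pooled 25th percentile were set to it and log2 was taken, so log2 changes understate differences near the floor. Probe sets above it on at least 3 of 6 arrays (6705) entered a two-sided limma 3.58.1 fit (R 4.3.3; lmFit, trended eBayes, no covariates, 4 residual degrees of freedom). Adjusted p-values are Benjamini-Hochberg over all of them, with a threshold of 0.05. In fits that left out an array, the floor and the tested probe sets stayed those of 6 arrays. Lists used each gene's brightest tested probe set. Every member probe set is named. Of each list, up to 2 higher and 2 lower genes with the smallest p were chosen to be named, and other genes are marked as named after their values were seen. For cell type lists other than those of astrocytes, counts or summed signals are given in place of most gene values. The members and the 13 lists were chosen with earlier results of these data known. The procedure was tested on simulated data, with changes placed only in probe sets well above the floor. It called 29 of 100 changes of 1.5-fold and 78 of 100 changes of 2-fold. Those were the only changes among 6705 probe sets, a smaller share than the 17.4% called in the data. The adjusted threshold is harder to pass when fewer probe sets change, so these rates do not give the sensitivity of the reported fit. The number of arrays limits the precision. Figures used Python 3.11.15, pandas 2.3.3 and matplotlib 3.10.9.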

Additional observations from a re-analysis of the deposited data

How the results depend on the processing

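Of 14 alternatives, 11 left the count of member probe sets past the threshold at 0. It was 1, lower in each case, under quantile normalization, without the filter on dim probe sets (both Slc1a2 U15098_at) and without contused array 3 (Glul M91652complete_seq_at); over the fits with 1 array left out it ran from 0 to 1. Over all probe sets the count of 1165 (522 higher, 643 lower) was 662 (266 and 396) without the filter. With 1 array left out it ran from 659 to 1260, with 276 to 484 higher and 383 to 776 lower. The cause was not tested. Without the filter, the calls of Abat, Slc6a6, Gja1, Slc16a1, Atp1b1, Slc12a2, Nfe2l2, Apoe, Ntrk2, Acsl6 and Tfrc were among those lost. A floor at the pooled median ended those of Gls2 and Acsl6, among others, and took Abat, Slc6a6 and Tfrc out of the test.

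Of 247 refitted changes of member probe sets, 19 turned their sign, none of them past the threshold on either side. Under quantile normalization these were Glul rc_AA852004_s_at (0.01169), Glud1 rc_AI137421_at (0.02567), rc_AI179613_at (0.01573) and rc_AI233216_at (0.04029), and Slc1a2 rc_AI638980_at (-0.06534). The others turned with 1 array left out, where Slc1a2 rc_AI044517_g_at ran from -0.0094 to 0.1759 and rc_AI638980_at from -0.1016 to 0.1228, Slc1a1 AF038571_s_at from -0.1603 to 0.2582 and L35558_s_at from -0.04663 to 0.1904, Glul M91652complete_seq_g_at from -0.02597 to 0.1635 and rc_AI232783_s_at from -0.07169 to 0.0942, and Glud1 rc_AI137421_at from -0.2514 to 0.2265 and rc_AI179613_at from -0.1411 to 0.00023. The 3 ratios between transporter genes kept their direction under every alternative tried for them.

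The arrays of both groups are numbered 1 to 3, and the labels do not say whether equal numbers belong together. Deviations from the group means correlated at 0.0415, 0.222 and -0.244 for equal numbers. With 3 arrays per group, such values cannot settle whether the arrays are paired. With the replicate number as a block, 1200 probe sets passed and 0 members. Precision is limited by 3 arrays per group, and where arrays lie under the floor the log2 change is compressed.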
